A study of Populus tremula x Populus alba with 6 samples.

Results

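The genes described are neighbours on chromosome 1 of poplar, namely every listed identifier from Potri.001G219000 to Potri.001G228000. These are 63 of the 32049 genes in the deposited count files, the first listed being Potri.001G219100. The interval was chosen by the sense-strand counts of these same libraries, because several of its genes were lower in RNAi plants than in wild type. Differences between RNAi and CTRL within it are therefore a description, and where calls of the fit over all genes are counted for its members, nothing is read from them. Transcripts were measured by strand-specific sequencing of polyadenylated RNA from the shoot apex, the growing tip with the meristem and the youngest leaves, of the hybrid Populus tremula x Populus alba, clone 717-1B4. The libraries were 3 of plants carrying a knock-down construct (RNAi) against the DDM1 gene and 3 of wild-type plants (CTRL), called biological replicates in the design text. All 6 plants grew at 21 °C with 16 h of light and were droughted for 3 weeks and watered again for 1 week before sampling, so no well-watered plant enters the comparison. The labels do not say whether the RNAi plants descend from 1 transformed line, so an effect of a line and of the knock-down cannot be told apart.

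DDM1 is a chromatin remodeller of the SNF2 family that plants need to keep DNA methylated, above all in transposons and other heterochromatin. Stretches of plant chromosomes can differ in methylation and chromatin state, and neighbouring genes are often tandem copies of each other. Identifiers of the form Potri.001G name loci of the reference genome of a related poplar, Populus trichocarpa, and are numbered along the chromosome. The files pair no identifier with a gene name, a function or a position, so roles of these genes, their distances, sequence likeness among them, and the levels of DDM1 and of shoot apex markers were not analysed here.

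Of the 63 members, 46 had enough counts to be fitted and 17 did not, 7 of which had 0 sense counts in every library. Gene counts per library ran from 12399644 to 17165295, and levels are given as CPM, counts per 1000000 counts of library size after TMM scaling. For a gene with 0 counts the limit is 3 counts, or 0.173 to 0.260 CPM depending on the library. Intervals quoted for ratios of pooled counts are 95% exact intervals and, like this limit, cover counting error only. In bulk tissue, fewer cells of a type and less RNA per cell cannot be told apart.

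The lower values sat in a short run of neighbours and at a separate site further along, and the rest of the interval was near 0 difference. Fitted levels were lower in RNAi by 2-fold or more in 5 of the 46 fitted members (10.9%), against 0.728% of all 24991 fitted genes, a share that the choice of the interval favours. These are Potri.001G221200, Potri.001G221500, Potri.001G221700 and Potri.001G221800, which lie close together, and Potri.001G226100, with 22 fitted members between the run and it. The count was 8 without RNAi 3 and 8 with no count filter. All 5 were lower by 4-fold or more, as were 0.164% of all fitted genes. No fitted member was higher in RNAi by 2-fold or more, against 0.976% of all fitted genes. The median log2 fold change, RNAi over CTRL, was -0.03 over the 46 members, 0.00 over the 41 members without these 5, and also 0.00 over all fitted genes. In edgeR's quasi-likelihood test with Benjamini-Hochberg adjustment over all fitted genes, 0 of the 46 members passed an adjusted p of 0.05, where 0.004% of all fitted genes passed. At an unadjusted p under 0.05 there were 4 lower and 2 higher members, against 2.56% lower and 3.08% higher of all fitted genes. DESeq2 called 2 members, Potri.001G221500 and Potri.001G221700 (0.152% of all fitted genes), and limma-voom called 0 (0.008% of all fitted genes). These counts rest on the values that chose the interval and support nothing about it.

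**Figure D1:**
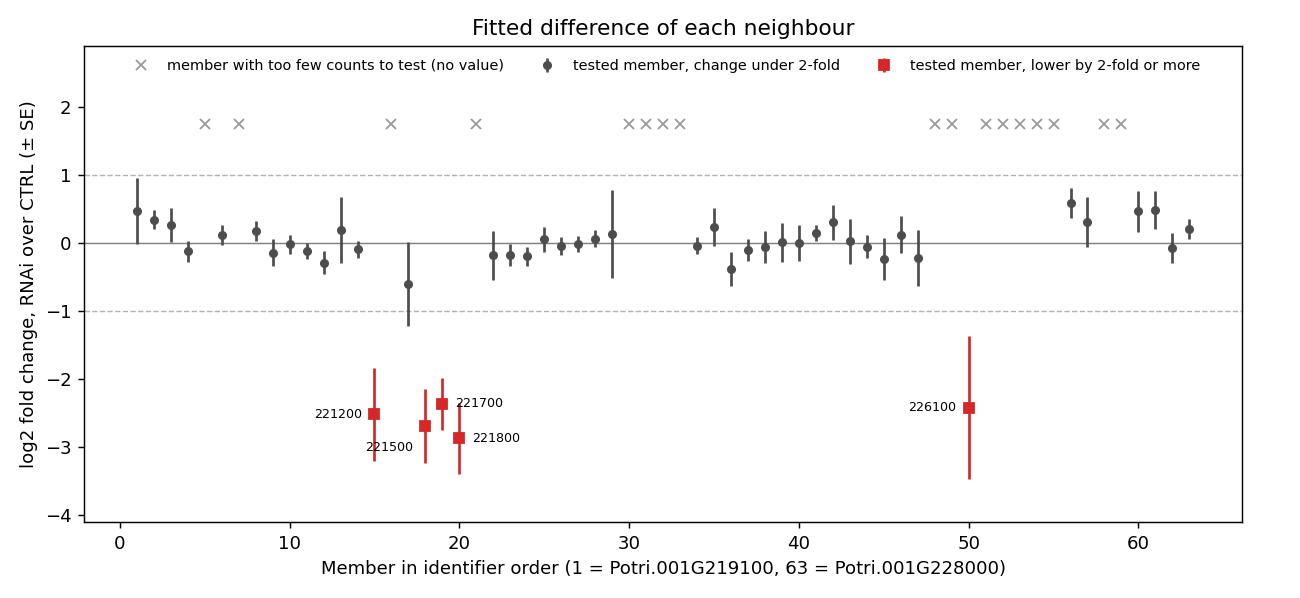
Fitted log2 fold change, RNAi over CTRL, of each member in identifier order, with its standard error as the vertical bar. Squares are the 5 members lower by 2-fold or more, circles the other 41 fitted members, and crosses mark the positions of 17 members with too few counts to fit. The 4 squares of the run lie between -2.86 and -2.36, and no circle lies outside the dashed lines at 2-fold.

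In the run itself, Potri.001G221200 had 103, 9 and 31 counts in RNAi 1, 2 and 3, against 196, 209 and 383 counts in CTRL 1, 2 and 3. Its level was 3.27 ± 3.67 CPM in RNAi and 18.3 ± 4.74 CPM in CTRL (SD, n = 3 each). All RNAi plants lay below all CTRL plants, with RNAi 1 at 40.7% of the CTRL mean and RNAi 2 at 3.15%. The fitted log2 fold change was -2.52 ± 0.68 (SE).

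Potri.001G221500 had 104, 28 and 26 counts in RNAi 1, 2 and 3, against 265, 270 and 434 counts in CTRL 1, 2 and 3. These correspond to 3.60 ± 3.39 CPM in RNAi and 22.7 ± 4.07 CPM in CTRL (SD, n = 3 each). The groups again did not overlap, and RNAi 1 stood above RNAi 2 and 3, at 33.1% of the CTRL mean against 7.89% and 6.60%. The fitted log2 fold change was -2.69 ± 0.54 (SE).

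Potri.001G221700 had 25, 13 and 15 counts in RNAi 1, 2 and 3, against 74, 60 and 119 counts in CTRL 1, 2 and 3. The means were 1.17 ± 0.55 CPM in RNAi and 5.95 ± 1.64 CPM in CTRL (SD, n = 3 each), with a fitted log2 fold change of -2.36 ± 0.38 (SE). Its RNAi plants were the most alike of the 3 genes given so far, between 14.0% and 30.4% of the CTRL mean, all below the lowest CTRL plant.

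Potri.001G221800 was counted rarely, with 4, 1 and 2 counts in RNAi 1, 2 and 3, against 13, 14 and 22 counts in CTRL 1, 2 and 3. The ratio of pooled RNAi to CTRL counts, scaled to library size, was 0.129, with an interval from 0.0494 to 0.287. The groups did not overlap. It reached the count minimum for fitting in the 3 CTRL libraries and in 0 RNAi libraries, so that its place among the fitted members came from the group in which it was high, and its fitted value of -2.86 ± 0.52 (SE) rests on few RNAi counts.

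The next listed gene, Potri.001G222000, was too low to be fitted and had values of the same direction. It had 5, 4 and 6 counts in RNAi 1, 2 and 3, against 12, 8 and 18 counts in CTRL 1, 2 and 3. The pooled RNAi to CTRL ratio was 0.357, with an interval from 0.183 to 0.665, and all RNAi plants were below all CTRL plants. With no count filter its log2 fold change was -1.46 ± 0.48 (SE).

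The other listed members inside the run behaved otherwise. Potri.001G221300 had 0 counts in all 6 libraries. Potri.001G221400 had 4, 4 and 20 counts in RNAi 1, 2 and 3, against 9, 9 and 20 counts in CTRL 1, 2 and 3. Its groups overlapped, because RNAi 3 lay above CTRL 1 and 2, and the fitted log2 fold change was -0.59 ± 0.61 (SE). This value moved with single plants, to -1.67 without RNAi 3 and to between -0.31 and -0.25 without RNAi 1, RNAi 2 or CTRL 3.

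The ends of the run were abrupt in the order of fitted genes. Just before it, Potri.001G221000 had 616, 578 and 678 counts in RNAi 1, 2 and 3, against 537, 588 and 675 counts in CTRL 1, 2 and 3, a log2 fold change of -0.09 ± 0.12 (SE). Just after it, Potri.001G222100 had 17, 21 and 32 counts in RNAi 1, 2 and 3, against 28, 21 and 20 counts in CTRL 1, 2 and 3, a log2 fold change of -0.18 ± 0.36 (SE). In both neighbours the plants of the 2 groups were intermingled.

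**Figure D2:**
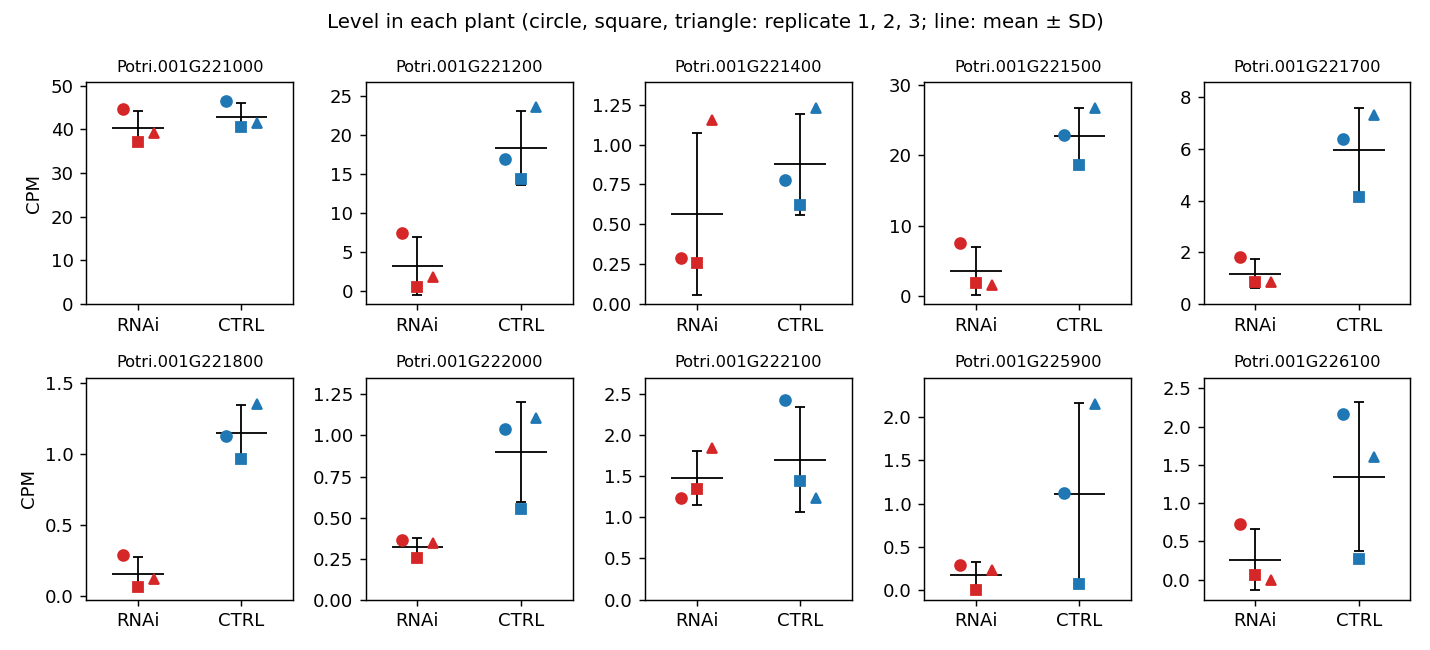
Level in CPM of each plant for the run, its neighbours on either side, and the separate pair of lower genes. Points are plants, shaped by replicate number, horizontal lines are group means and bars are SD (n = 3 each). In Potri.001G221200, Potri.001G221500, Potri.001G221700, Potri.001G221800 and Potri.001G222000 every RNAi plant lies below every CTRL plant, and in Potri.001G225900 and Potri.001G226100 the plant CTRL 2 lies among the RNAi plants.

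Summed over the 5 members of the run whose groups did not overlap, the level was 17.4, 3.52 and 4.61 CPM in RNAi 1, 2 and 3, against 48.5, 38.6 and 60.0 CPM in CTRL 1, 2 and 3. RNAi 1 thus held 35.5% of the CTRL mean, and RNAi 2 and 3 held 7.19% and 9.41%. RNAi 1 was the highest RNAi plant in all 5 fitted members lower by 2-fold or more, while over all fitted genes it was the highest RNAi plant in 29.5%. Of the 5 fitted genes from Potri.001G221200 to Potri.001G221800 it was highest in 4, RNAi 3 being highest in Potri.001G221400. The lower members were picked by their RNAi values, so nothing is read from these counts. Without RNAi 1 the fitted differences were larger, at -3.93 for Potri.001G221200, -3.79 for Potri.001G221500, -2.80 for Potri.001G221700 and -3.55 for Potri.001G221800. They kept their direction without any other single plant.

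The separate site was low in every plant, and CTRL plants differed more there than in the run. Potri.001G226100 had 10, 1 and 0 counts in RNAi 1, 2 and 3, against 25, 4 and 26 counts in CTRL 1, 2 and 3. RNAi 1, at 0.723 CPM, lay above CTRL 2, at 0.275 CPM, so the groups overlapped. The fitted log2 fold change was -2.41 ± 1.05 (SE), and it was -5.11 without RNAi 1 and -1.78 without RNAi 3. The pooled RNAi to CTRL ratio was 0.181, with an interval from 0.0855 to 0.350.

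Potri.001G225900, listed shortly before it and too low to be fitted, had 4, 0 and 4 counts in RNAi 1, 2 and 3, against 13, 1 and 35 counts in CTRL 1, 2 and 3. CTRL 2 again lay among the RNAi plants, and the pooled RNAi to CTRL ratio was 0.148, with an interval from 0.0605 to 0.315. Its log2 fold change with no count filter was -2.66 ± 1.09 (SE). Between these 2 genes, Potri.001G226000 had 1 count in all, in CTRL 2. On either side of the site, the nearest fitted genes were not lower by 2-fold. Potri.001G225800 had 26, 53 and 30 counts in RNAi 1, 2 and 3, against 26, 60 and 29 counts in CTRL 1, 2 and 3. Potri.001G226900 had 263, 450 and 305 counts in RNAi 1, 2 and 3, against 179, 173 and 259 counts in CTRL 1, 2 and 3.

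Most neighbours of the run had small fitted differences. Of the 46 fitted members, 30 (65.2%) had a fitted change under 1.2-fold in either direction, as did 69.6% of all fitted genes. Among the 5 members with the highest mean CPM, which were not corrected for gene length, fitted log2 fold changes ran from -0.17 ± 0.16 for Potri.001G222200 to 0.27 ± 0.25 for Potri.001G219300 (SE). Potri.001G222200, close behind the run, averaged 423 ± 20.5 CPM in RNAi and 475 ± 53.8 CPM in CTRL (SD, n = 3 each), a difference within the spread of CTRL plants. Potri.001G225100, Potri.001G224700 and Potri.001G224100 had log2 fold changes of 0.00, -0.10 and -0.04.

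Groups did not overlap in 5 fitted members with RNAi lower and in 2 with RNAi higher, where 6.08% and 5.75% of all fitted genes did so. The fifth on the lower side, beside the 4 of the run, was Potri.001G220700, whose difference was small, at 21.0 ± 1.15 CPM in RNAi and 22.7 ± 0.71 CPM in CTRL (SD, n = 3 each). On the higher side were Potri.001G219200, at 38.6 ± 6.19 CPM in RNAi and 30.4 ± 0.97 CPM in CTRL, and Potri.001G226900, at 21.8 ± 6.12 CPM in RNAi and 14.4 ± 2.21 CPM in CTRL (SD, n = 3 each). Potri.001G226900, the first fitted gene after Potri.001G226100, had the largest fitted log2 fold change upwards, 0.60 ± 0.22 (SE).

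Near the end of the interval, 2 adjacent listed genes varied among RNAi plants and little among CTRL plants. Potri.001G227300 had 32.7, 18.0 and 47.0 CPM in RNAi 1, 2 and 3, against 23.7, 22.6 and 24.4 CPM in CTRL 1, 2 and 3. Potri.001G227400, the next listed gene, had 94.5, 47.5 and 113 CPM in RNAi 1, 2 and 3, against 58.9, 62.2 and 60.5 CPM in CTRL 1, 2 and 3. In both, RNAi 3 and RNAi 1 lay above all CTRL plants and RNAi 2 below them, so the RNAi plants did not move one way. Their fitted log2 fold changes were 0.47 ± 0.30 and 0.49 ± 0.28 (SE). These genes were singled out after their values were seen, and other members near them did not share the pattern. Potri.001G227000 had 9.11, 13.6 and 24.1 CPM in RNAi 1, 2 and 3, against 9.95, 17.7 and 10.1 CPM in CTRL 1, 2 and 3. Potri.001G227800 had 8.02, 10.5 and 7.84 CPM in RNAi 1, 2 and 3, against 11.5, 9.14 and 7.20 CPM in CTRL 1, 2 and 3, the wider spread being that of CTRL.

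**Figure D3:**
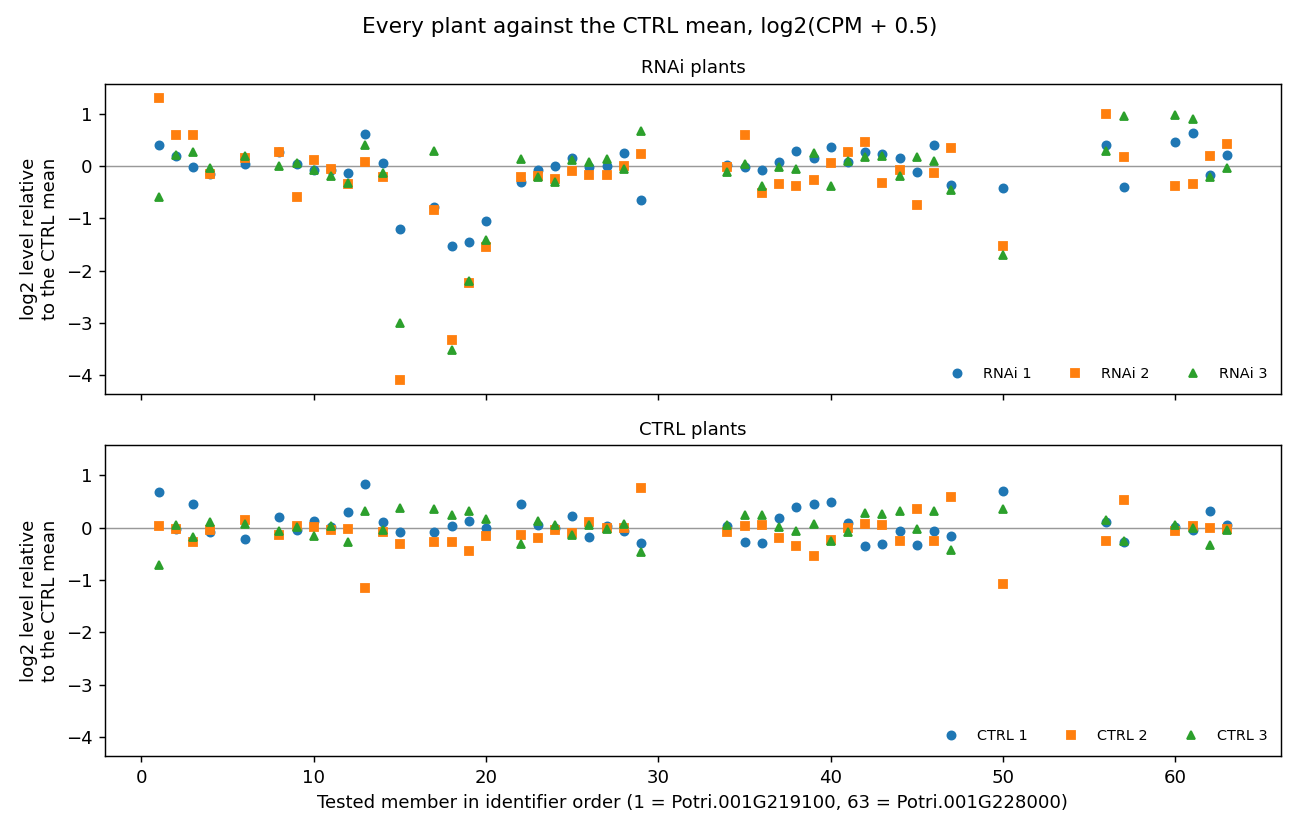
Level of each plant relative to the CTRL mean, as a difference of log2(CPM + 0.5), for the 46 fitted members in identifier order, with RNAi plants above and CTRL plants below. Over the run at positions 15 to 20 RNAi 2 and 3 reach lower than RNAi 1, except at position 17 (Potri.001G221400), where RNAi 3 is above 0. Among CTRL plants the lowest points are CTRL 2 at positions 13 and 50 (Potri.001G220900 and Potri.001G226100).

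Differences among CTRL plants were set out without the RNAi libraries. The ratio of the highest to the lowest CTRL plant, with counts of 0 set to 1, had a median of 1.46 over the 46 fitted members and of 1.33 over all fitted genes. It was 2 or more in 6 members (13.0%), against 12.4% of all fitted genes. These 6 were Potri.001G219100, Potri.001G220900, Potri.001G222800, Potri.001G225000, Potri.001G225800 and Potri.001G226100, of which only the last was among the 5 lower in RNAi. Its ratio of 7.87 was the highest of the fitted members. Potri.001G220900 followed with 4.92. It had 6.29, 4.23 and 5.36 CPM in RNAi 1, 2 and 3, against 7.44, 1.51 and 5.04 CPM in CTRL 1, 2 and 3, so that CTRL 2 was the lowest of all 6 plants.

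Within the run, CTRL plants kept the same order of CPM in each gene that had counts. CTRL 3 was highest, CTRL 1 in the middle and CTRL 2 lowest in all 5 fitted genes from Potri.001G221200 to Potri.001G221800, including Potri.001G221400, and also in Potri.001G222000. Counts of CTRL 1 and CTRL 2 were 196 and 209 in Potri.001G221200 and 265 and 270 in Potri.001G221500. They were 13 and 14 in Potri.001G221800 and 9 and 9 in Potri.001G221400. In these genes CTRL 1 ranked above CTRL 2 only after scaling to library size. At the few counts of Potri.001G221800 and Potri.001G221400 that ranking is within counting error. The order CTRL 3, CTRL 1, CTRL 2 was found in 13.0% of all fitted genes and in 14 of the 46 members, the 5 of the run among them. It was not particular to the run. Potri.001G222200 and Potri.001G222300, close behind it and not lower by 2-fold, had this order too. Of 24268 stretches of 5 successive fitted genes on the chromosomes, 63 (0.260%) had any single order of CTRL plants throughout, and the run was the only such stretch starting in the interval. The run was picked out after its values were seen, and the stretch length of 5 is its own number of fitted genes, so the 0.260% does not measure how rare it is. CTRL ratios of the 4 lower genes of the run lay between 1.41 and 1.77, close to the 1.46 of the members. In these 4 the shared order thus came with modest differences in level. The ratios were larger on few counts, at 1.99 in Potri.001G221400 and 2.01 in Potri.001G222000. At the separate site, Potri.001G225900 had the order of the run, on 13, 1 and 35 counts in CTRL 1, 2 and 3. Potri.001G226100 had another order after scaling to library size, with CTRL 1 above CTRL 3, on 25, 4 and 26 counts.

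Among RNAi plants the lower genes spread more widely. The ratio of the highest to the lowest RNAi plant was 2 or more in all 5 lower members, with a median of 5.01 and a maximum of 12.9, and in 12 of the 46 fitted members (26.1%) against 13.8% of all fitted genes. Because low counts widen such ratios, this compares genes of unequal depth. The 5 lower members were also picked by low RNAi values and are counted among the 12, so nothing is read from these shares. Over the 45 pairs of successive fitted members, 12 (26.7%) had the same order of RNAi plants and 12 the same order of CTRL plants, against 19.9% and 19.4% of successive pairs over all chromosomes. The 12 CTRL pairs include all those within the run, whose shared order is given above, so this count is not a separate result.

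The strand opposite to each gene, which the choice of the interval did not use, held few counts. Members together had 50, 84 and 66 such counts in RNAi 1, 2 and 3, against 76, 72 and 83 counts in CTRL 1, 2 and 3. Scaled to library size these were 4.27 ± 0.97 CPM in RNAi and 5.54 ± 0.90 CPM in CTRL (SD, n = 3 each), with RNAi 2 inside the range of CTRL plants. Without RNAi 2 the RNAi to CTRL ratio was 0.669 in place of 0.770. Opposite-strand counts made up between 0.172% and 0.288% of the members' stranded counts. Over all genes this share was 1.59% to 1.65% in RNAi and 1.67% to 1.82% in CTRL. A lower share in RNAi was thus not particular to the members. In the run, Potri.001G221200 and Potri.001G221500 had 1 opposite-strand count each over all libraries, and Potri.001G221700, Potri.001G221800 and Potri.001G222000 had 0, so that this strand was near 0 in both groups. Opposite-strand counts exceeded sense counts in 3 members, all low. The largest was Potri.001G227100, with 10, 10 and 6 opposite-strand counts in RNAi 1, 2 and 3, against 2, 11 and 2 counts in CTRL 1, 2 and 3. Counts taken without regard to strand equalled the sum of the strands in all but 4 members, none of them in the run.

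Genes adjoining the interval did not continue the run. Among the 46 fitted genes before it, 0 were lower and 3 higher in RNAi by 2-fold or more, with a median log2 fold change of 0.00. Just inside the start, Potri.001G219100 was fitted at a log2 fold change of 0.47 ± 0.49, and just outside, Potri.001G218900 and Potri.001G218800 were at 1.02 ± 0.36 and 1.05 ± 0.47 (SE). Across the end, Potri.001G228000 inside and Potri.001G228100 outside were at 0.21 ± 0.15 and 0.15 ± 0.13 (SE). Among the 46 fitted genes after the interval, 3 were lower and 0 higher by 2-fold or more, with a median of 0.06. The 3 were Potri.001G231300, Potri.001G235300 and Potri.001G235500, which are 18, 41 and 43 fitted genes past the end. The last 2 thus lie near each other, with log2 fold changes of -1.50 ± 0.37 and -1.97 ± 0.77 (SE). Over the remaining 2801 fitted genes of chromosome 1, 22 (0.785%) were lower by 2-fold or more.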

How the data were processed

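RNA was sequenced from 3 RNAi and 3 CTRL shoot apices with a stranded, polyA-selected TruSeq protocol, per the labels' protocols. The authors deposited raw counts per gene and library, with columns for the unstranded, forward and reverse counts, per the file headers. STAR is named in the submitters' processing notes, with version, build and annotation not given in the sources used here. Reverse-column counts were taken as sense. Summary lines that name no gene (11.7% to 13.1% of reads, multimapping reads among them) stayed out of library sizes and tests. Genes that share sequence with a near-identical copy would lose reads there, which was not tested.

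RNAi was compared with CTRL over all genes by edgeR 4.0.16 (R 4.3.3, filterByExpr with a minimum of 10 counts scaled to library size in 3 libraries, TMM, robust quasi-likelihood F test, Benjamini-Hochberg adjustment), checked on simulated counts. On the simulated counts the test called 25 of 66 genes changed 2-fold, 62 of 64 changed 4-fold and 65 of 66 changed 8-fold. It also called 21 of 24611 unchanged genes. A standard error is the fitted log2 change over the square root of its F value. Alternatives were DESeq2 1.42.0, limma-voom (limma 3.58.1), other scalings and filters, the unstranded column, the replicate number as a block, and leaving out each library. Named genes are fitted members past 2-fold, their nearest fitted neighbours, the 5 members with the highest mean CPM, members with counts in 1 group alone, and genes at the ends of the interval; others were named after their values were seen. The interval, its members and the rules were chosen with earlier results of these data known.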

Additional observations from a re-analysis of the deposited data

How the results depend on the processing

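The 4 lower genes of the run stayed lower by 2-fold or more in all 14 alternatives fitted, with log2 fold changes from -3.93 to -2.02 for Potri.001G221200, -3.79 to -2.30 for Potri.001G221500, -2.80 to -2.18 for Potri.001G221700 and -3.55 to -2.52 for Potri.001G221800. Potri.001G226100 lay between -5.11 and -1.78 in 13 and was left out by a filter of 1 CPM in 3 libraries. The count of members lower by 2-fold or more was 5 to 8 with 1 library left out, 8 without RNAi 3, and 8 with no count filter, which added Potri.001G222000, Potri.001G225900 and Potri.001G226000. With no filter 1 member, Potri.001G222900, was higher by 2-fold or more, on 3 RNAi counts and 1 CTRL count. The count of called genes over the genome was 1, and it was 38 in DESeq2, 2 in limma-voom, 0 with library size only, 0 at 1 CPM in 3 libraries and 0 to 7 with 1 library left out, the 7 without RNAi 1 (cause not tested). Among these 7 was 1 member, Potri.001G221500. With the replicate number as a block the count was 0. Deviations of same-numbered libraries correlated by 0.24, -0.02 and -0.03 for numbers 1, 2 and 3. Correlations of differently numbered libraries are not given here, so these values cannot settle whether equal numbers mark paired plants. The median ratio among CTRL plants was 1.17 to 1.26 with 1 of them left out, being then a ratio of 2 plants. The RNAi to CTRL ratio of opposite-strand CPM lay between 0.669 (without RNAi 2) and 0.849 (without CTRL 1) over its alternatives, and the median log2 fold change of the members between -0.08 (without CTRL 2) and 0.03 (without CTRL 1). Genes with few counts, among them Potri.001G221800, Potri.001G222000, Potri.001G225900 and Potri.001G226100, are limited by depth.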
